A study of Homo sapiens with 24 samples.

Results

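The members described here are the genes for matrix metalloproteinases (MMP), for ADAMTS proteinases, for ADAMTS-like proteins (ADAMTSL) and for tissue inhibitors of metalloproteinases (TIMP). They were chosen by symbol alone, as MMP, ADAMTS or ADAMTSL followed by a number or TIMP followed by 1 digit, with a total count of at least 10 over 24 libraries. The rule uses no measured difference, although it was set with earlier results of these data known. Of 50 matching symbols, 48 genes passed, made up of 20 MMP, 19 ADAMTS, 5 ADAMTSL and 4 TIMP genes, among 29377 entries that passed the same minimum in the whole table. MMP26, with a total of 2 reads, and MMP27, with 0, did not pass. The count table lists 6 of the symbols in 2 entries each, and the first entry was used, except that MMP28 is given by both entries, MMP28 and MMP28-2, which makes 49 entries. Together the members took 0.225% of all counts.

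MMPs are zinc-dependent endopeptidases that are secreted or anchored in the membrane as inactive proenzymes and that cleave collagens, gelatin, proteoglycans and many surface and signalling proteins. ADAMTS proteinases are secreted relatives with thrombospondin repeats, of which some cleave the large proteoglycans and others trim procollagens or act on microfibrils and plasma proteins, while ADAMTSL proteins keep the repeats and lack the catalytic domain. TIMPs bind the active site of these enzymes and inhibit them, and in peripheral nerve the balance of both is known for its part in matrix turnover around axons.

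The study asked how cytokines of airway inflammation act on sensory neurons made from human pluripotent stem cells. Cells of 1 embryonic stem cell line, H9WAO9, wild type, were taken through vagal neural crest precursors to mature sensory neuron cultures in 6 batches of differentiation. In every batch the cultures were exposed for 5 days to vehicle (bovine serum albumin in PBS), to TGF-β at 2 ng/ml, or to IL-4 at 10 ng/ml with IL-13 at 3 ng/ml, and polyA RNA of whole cultures was sequenced. The last group is labelled IL-6, whose dose and time are not given in the sources used here. Each group holds 6 libraries, 1 per batch. Batch is a term of the model, so p-values rest on how much treatment differences vary between batches of a single line. By the study's own flow cytometry only a minority of the cells were neurons, and in such mixed RNA fewer cells of a type and less RNA per cell cannot be told apart.

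Between 33342682 and 39817784 reads per library were counted on genes. Neuronal markers were high in every group (STMN2 had a vehicle median of 54820 normalized counts, which are counts divided by DESeq2's size factors), while the pluripotency gene NANOG had a median of 0 in each group, and abundant COL1A1 (vehicle median 97620) marked the presence of mesenchymal cells. The treatment was visible in IL-4 + IL-13 libraries, where ALOX15, CCL26, CISH and IL13RA2 all rose (4 of 4 genes). None of 4 TGF-β response genes under TGF-β and none of 3 IL-6 response genes under IL-6 was called against vehicle with edgeR or with DESeq2, and at an unadjusted p under 0.05 edgeR gave 2 TGF-β genes higher (TGFBI and SKIL) and 1 IL-6 gene lower (STAT3). Under IL-4 + IL-13, 2 of the 4 TGF-β response genes were called lower than vehicle with each tool. Directly compared with IL-4 + IL-13, TGF-β had 2 of them called higher. Libraries of the same batch deviated together, with a median correlation of 0.564 over 36 pairs and 20962 genes. Vehicle of batch 2 stood apart, with a mean correlation of 0.0355 to the other libraries of its own batch and of 0.427 to those of batch 4. Vehicle of batch 4 had 0.152 within its own batch and 0.402 to batch 2. Treated libraries of batch 4 were also closer to another batch. TGF-β had 0.391 within its own batch and 0.559 to batch 3, and IL-4 + IL-13 had 0.314 and 0.519. Results that change without these vehicle libraries are given with and without them. The treated libraries of batch 4 were left out only together with the whole batch.

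MMP7 and ADAMTS14 had the largest called differences between TGF-β and IL-4 + IL-13 among the members whose upstream sequence was at hand, and MMP10 lies with MMP7 in the MMP cluster of chromosome 11. Their 250 bases before the RefSeq start of the gene are printed 5′ to 3′ on the gene's strand (GRCh38.p14), with matches to the AP-1 letters TGANTCA in capitals. MMP7 is at chr11:102530748-102530997 (minus strand), MMP10 at chr11:102780629-102780878 (minus strand) and ADAMTS14 at chr10:70672256-70672505 (plus strand).
MMP7: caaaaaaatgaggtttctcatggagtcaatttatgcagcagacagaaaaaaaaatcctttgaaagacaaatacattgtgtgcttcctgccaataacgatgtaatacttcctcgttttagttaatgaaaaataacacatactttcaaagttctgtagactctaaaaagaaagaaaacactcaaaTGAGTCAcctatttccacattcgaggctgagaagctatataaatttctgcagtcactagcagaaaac
MMP10: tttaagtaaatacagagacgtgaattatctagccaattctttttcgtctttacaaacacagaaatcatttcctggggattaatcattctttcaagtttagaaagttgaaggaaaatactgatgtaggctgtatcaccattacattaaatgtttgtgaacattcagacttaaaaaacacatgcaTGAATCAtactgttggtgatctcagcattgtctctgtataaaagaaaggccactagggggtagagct
ADAMTS14: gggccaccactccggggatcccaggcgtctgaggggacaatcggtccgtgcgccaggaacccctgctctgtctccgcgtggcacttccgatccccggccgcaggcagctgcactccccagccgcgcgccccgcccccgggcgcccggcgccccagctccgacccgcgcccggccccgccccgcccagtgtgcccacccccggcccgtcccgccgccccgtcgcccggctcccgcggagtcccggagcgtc
The capitals of MMP7 read TGAGTCA and lie 67 to 61 bases before the start, and those of MMP10 read TGAATCA at the same distance. Over both strands the AP-1 letters occurred in 4 of 30 member promoters (MMP7, MMP10, MMP20 and ADAMTS12) and in 6.57% of all 35116 promoters of that length. The SMAD letters CAGAC occurred in 16 of 30 and in 38.0% of all, and the STAT pattern (TTC and GAA with 4 bases between them) in 0 of 30 and in 5.38% of all. A match is a description of the letters, not a site or a cause. Promoter sequences were at hand for 29 of the 48 genes.

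In vehicle cultures the inhibitors TIMP1, TIMP2 and TIMP3 and 2 enzymes stood at the top. Levels between genes are compared per length, as normalized counts per kilobase of merged exons (vehicle median, with the lowest and highest batch). TIMP2, which also takes part in the activation of proMMP2 by MMP14, had 3881 (2755 to 4735). MMP14, a membrane-type collagenase, had 2385 (1810 to 3889) and TIMP1, a soluble inhibitor, 2345 (1537 to 3768). TIMP3, the inhibitor that is bound to the matrix, followed with 1879 (819.7 to 3675) and MMP2, gelatinase A, with 1003 (763 to 3085). These 5 were the highest members, while the inhibitor TIMP4 had rank 28 with 21.86. MMP24, a membrane-type MMP of neurons, had 839 per kilobase, MMP15 had 450.1 and the versican- and aggrecan-cleaving ADAMTS1 had 438. Every neighbouring pair in this order overlapped in its range over the batches, so neighbours were not separated beyond their spread.

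The members that were called between any pair of groups held ranks from 22 to 44 of the 49 entries. ADAMTS14 had rank 22 with 44.9 normalized counts per kilobase, ADAMTS16 rank 27 with 30.6, MMP9 rank 32 with 18.3, MMP28 rank 34 with 12.6, MMP28-2 rank 36 with 10.98, MMP21 rank 38 with 9.57 and MMP25 rank 40 with 9.01. MMP7, the matrilysin without a hemopexin domain, had rank 44 with 4.12, and the top of its range from 1.56 to 71.2 was the library of batch 1. MMP19 had rank 15 with 86.6. MMP8, the neutrophil collagenase, and MMP20, the enamel enzyme, had a median of 0.

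**Figure D1:**
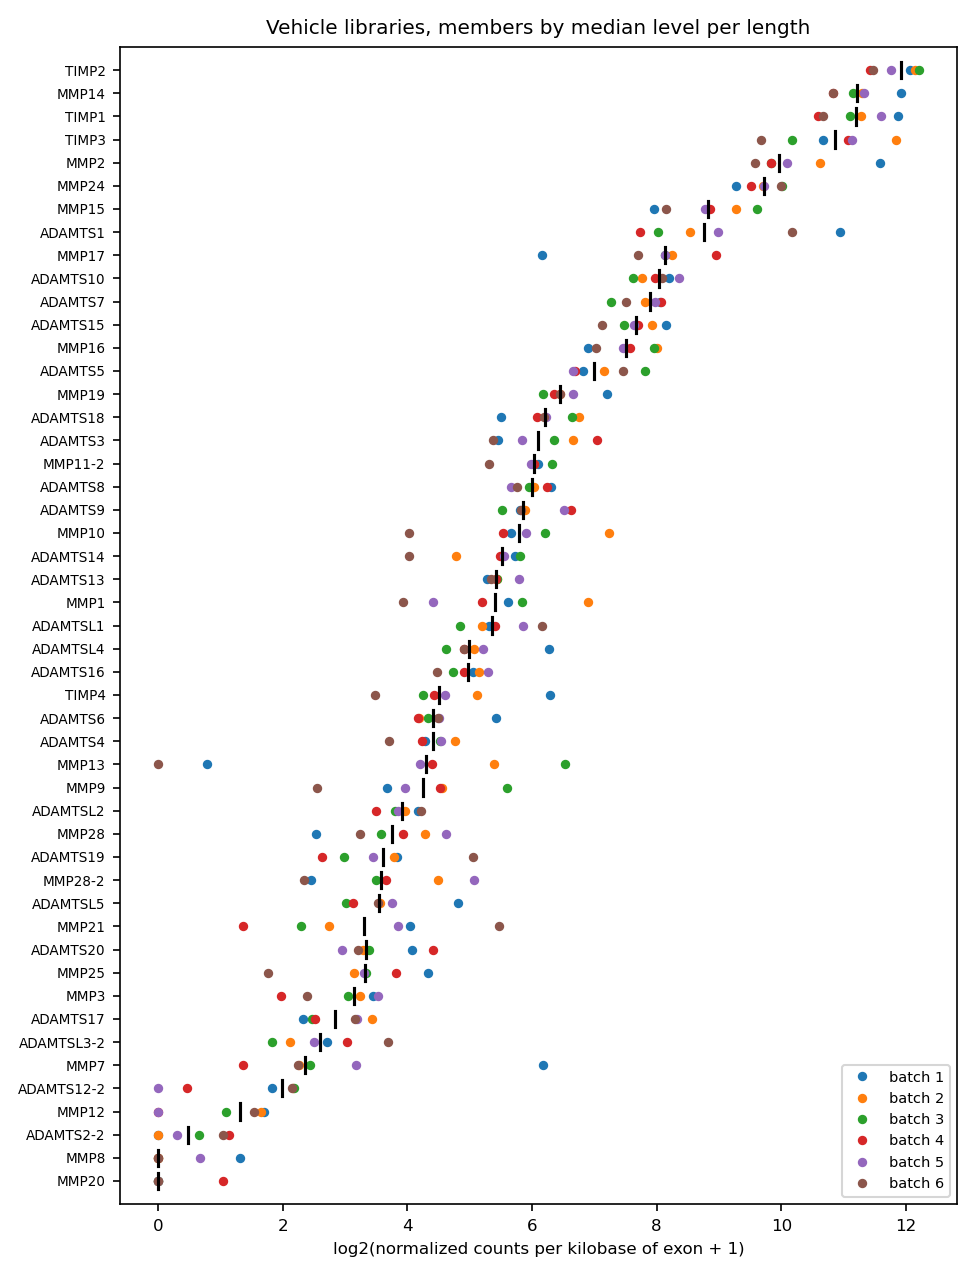
Levels of the 49 entries in the 6 vehicle libraries, as log2(normalized counts per kilobase of exon + 1) on the horizontal axis, ordered by their median (bar), with 1 coloured point per batch. TIMP2, MMP14, TIMP1, TIMP3 and MMP2 lead, and for MMP7 the point of batch 1 stands far to the right of the other batches.

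The differences between the 4 groups were tested within batch with edgeR, and a member is called in a pair when its Benjamini-Hochberg adjusted p over all 29377 entries is under 0.05 and its log2 fold change is beyond 1 in either direction. For any difference among the groups, 9 of the 48 genes had an adjusted p under 0.05 (16 with DESeq2), against a background of 1.81% of all entries (4.34% with DESeq2). They were MMP28 in both entries (adjusted p = 4.48e-05 and 0.000106), MMP7 (0.000295), ADAMTS16 (0.000961), ADAMTS14 (0.00120), MMP9 (0.00674), ADAMTS10 (0.00847), ADAMTS6 (0.0122), MMP2 (0.0153) and MMP25 (0.0396). With vehicle of batch 2 left out the number was 16, with vehicle of batches 2 and 4 both left out it was 17, and without batch 5 it was 5. By share of the variance of log2 levels, treatment took 66.9% for ADAMTS16, 61.2% for MMP28, 51.3% for ADAMTS14 and 41.8% for MMP7, for which batch took 47.7%. For most members batch took the larger share, up to 90.4% for MMP15 and 88.0% for MMP17, both membrane-type enzymes.

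**Figure D2:**
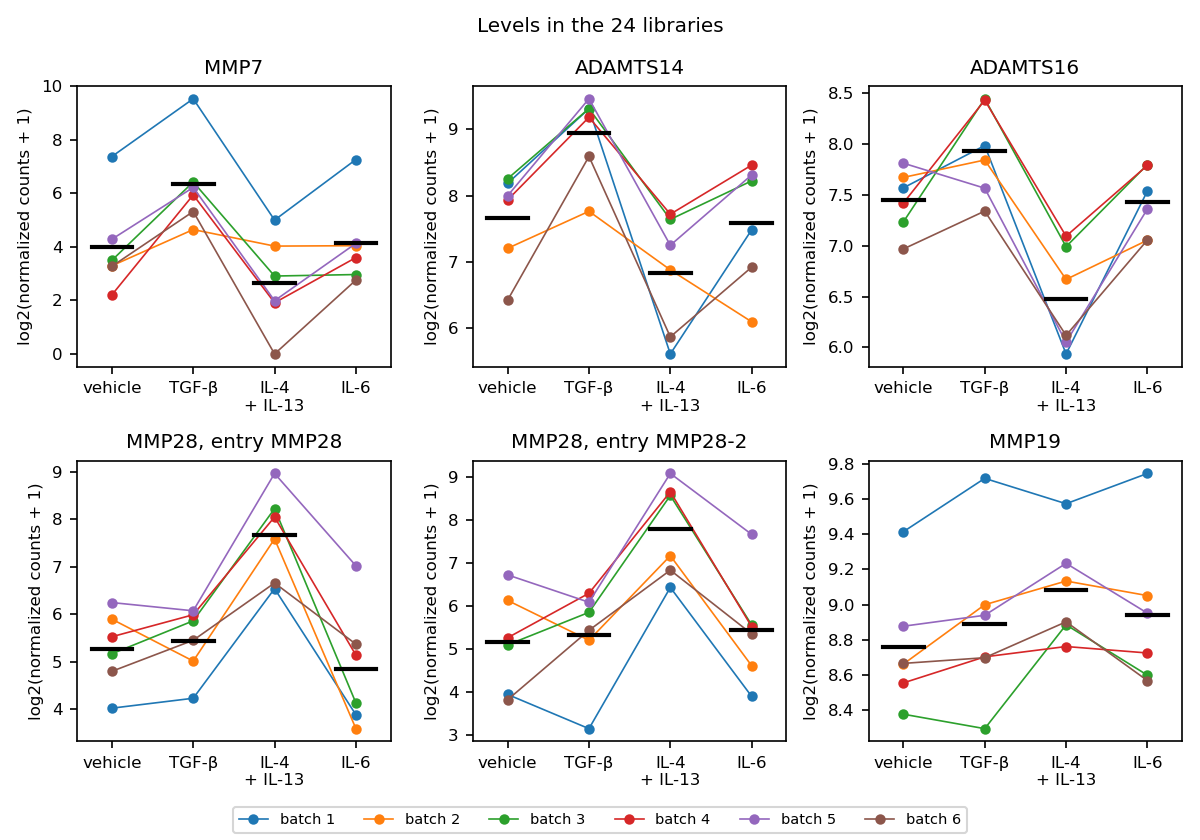
Levels of MMP7, ADAMTS14, ADAMTS16, both MMP28 entries and MMP19 in all 24 libraries, as log2(normalized counts + 1) on the vertical axis, with the 4 groups along the horizontal axis. Lines join libraries of a batch and black bars are group means of these log2 values. MMP7 rises from vehicle to TGF-β in each of the 6 batches and both MMP28 entries rise from vehicle to IL-4 + IL-13 in each.

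Under TGF-β, MMP7 rose. MMP7 (chromosome 11, 102520508 to 102530747, GRCh38.p14), which cleaves proteoglycans, fibronectin and cell surface proteins, had 3.62, 9.56 and 165 normalized counts in vehicle as lowest, median and highest, and 24.1, 67.1 and 741 under TGF-β. The highest library of both groups was that of batch 1, and although the groups overlapped across batches, TGF-β was above vehicle in each batch. Its log2 fold change was 2.43 ± 0.43 (SE), a 5.40-fold rise (adjusted p = 0.0163, higher in 6 of 6 batches). It was the 1 member called against vehicle, where 0.143% of all entries were called (DESeq2 called 2 members, MMP7 and ADAMTS14, and 0.797% of entries). Its adjusted p was over 0.05 without vehicle of batches 2 and 4 (log2 fold change 2.11, adjusted p = 0.0650) and in each of the fits without batch 1 (0.0636), 3 (0.145), 4 (0.0871), 5 (0.121) or 6 (0.0548), while the log2 fold change stayed between 2.23 and 2.55 in those that left out 1 batch.

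ADAMTS14, a procollagen N-proteinase that trims the aminopropeptide of fibrillar procollagens, was next. It lies on chromosome 10 (70672506 to 70762441) and had 85.0, 249.7 and 305 normalized counts in vehicle against 217, 608 and 705 under TGF-β. Only batch 2 kept the TGF-β group within the range of vehicle. Its log2 fold change of 1.27 ± 0.27 (higher in 6 of 6 batches) missed the call with edgeR (adjusted p = 0.0530) and passed it with DESeq2 (0.000795), and it passed with edgeR without batch 1 (1.31, adjusted p = 0.0312) and without batch 2 (1.39, 0.0255). Its relative ADAMTS3 had a log2 fold change of -0.08 ± 0.14, and the N-proteinase ADAMTS2 is described with the doubled entries further on.

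The 2 gelatinases, which cleave denatured collagen and basement membrane collagen, had positive values without passing the call. MMP2 had 3591, 4722 and 14520 normalized counts in vehicle and 5955, 8524 and 17740 under TGF-β, and MMP9 had 11.3, 42.8 and 111 against 37.7, 75.5 and 215. Both were above vehicle in 5 of 6 batches and below it in batch 2. The log2 fold changes were 0.59 ± 0.16 for MMP2 (adjusted p = 0.171) and 0.97 ± 0.28 for MMP9 (0.209), and without batch 2 MMP9 passed the call (1.29, adjusted p = 0.0381). ADAMTS6, a relative of ADAMTS10 with a role in microfibrils, had 0.83 ± 0.19 (adjusted p = 0.0681, higher in 6 of 6 batches), and MMP13, collagenase 3, had 1.51 ± 0.59 (0.492, 5 of 6). MMP13 was uneven between batches, from 3.34 to 619.5 normalized counts under TGF-β.

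On the side of lower values under TGF-β no member passed the call. ADAMTS15 and ADAMTS8, proteoglycanases that lie 20036 bases apart on chromosome 11, each had a log2 fold change of -0.44 (lower in 6 and 5 of 6 batches, adjusted p = 0.290 and 0.252). ADAMTS1 had -0.53 (6 of 6, 0.680), the matrix protein gene ADAMTSL1 -0.70 (5 of 6, 0.232) and MMP21, an MMP known from left-right patterning, -0.94 ± 0.30 (5 of 6, 0.287). At an unadjusted p under 0.05, 11 member genes were higher and 6 lower, where the whole table gave 2.42% higher and 4.87% lower. The median log2 fold change of the members was 0.145, beside -0.0123 over all entries. Without vehicle of batches 2 and 4 these counts were 18 and 3, and the called number was 0. Beside these values, the summed glial markers (6 genes) were above vehicle in 6 of 6 batches (median log2 difference 0.403), and the summed mesenchymal markers in 5 of 6 (0.282). The summed melanocyte markers were below vehicle in 5 of 6 (-0.545, with MITF at an adjusted p of 0.0352). Their part in the members' values was not tested.

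Under IL-4 + IL-13, MMP28 rose. MMP28, or epilysin, is known from keratinocytes, healing epithelium and testis and lies on chromosome 17 (35756249 to 35795641). Entry MMP28 had 15.3, 40.1 and 75.1 normalized counts in vehicle and 92.2, 228 and 500.3 under IL-4 + IL-13, so that the lowest treated library stood above the highest vehicle library. Entry MMP28-2 had 13.02, 35.03 and 104 against 84.7, 259 and 537, where only vehicle of batch 5 lay above the lowest treated library, that of batch 1. The log2 fold changes were 2.42 ± 0.33 (5.36-fold, adjusted p = 0.000770) and 2.60 ± 0.36 (6.06-fold, 0.000815), each with 6 of 6 batches higher. The 2 entries are near-identical copies in the annotation between which reads can be split, so they count as 1 gene. It was the 1 member called, with 0.371% of all entries called (1 member with DESeq2, and 0.994% of entries). Without vehicle of batches 2 and 4 the values were 2.76 and 2.93, and the call held in all 6 fits that left out 1 batch.

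ADAMTS16, a proteinase known from kidney and gonad (chromosome 5, 5140330 to 5320304), had a lower level. It had 124, 179 and 223 normalized counts in vehicle and 60.2, 84.6 and 136 under IL-4 + IL-13, with lower values in 6 of 6 batches and an overlap at the edges alone. Its log2 fold change was -0.98 ± 0.18 (adjusted p = 0.0113), just inside the fold limit, and -1.03 (0.0147) without vehicle of batches 2 and 4, where it was called. Its adjusted p was over 0.05 without batch 1 (-0.86, adjusted p = 0.0907), 5 (-0.81, 0.110) or 6 (-1.003, 0.0735). ADAMTS10, a microfibril-binding member, had 1112, 1489 and 1863 in vehicle and 1708, 1911 and 2477 in treated libraries, a log2 fold change of 0.44 ± 0.09 (0.0164, 6 of 6 higher). MMP19, an MMP of basement membrane and matrix turnover on chromosome 12 (55835433 to 55842936), had 332, 405 and 681 against 433, 519 and 760.5. Its log2 fold change of 0.33 ± 0.08 was small and even between batches (6 of 6 higher, adjusted p = 0.0958, 0.00747 with DESeq2).

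Several members that were higher under TGF-β had negative values under IL-4 + IL-13, although these comparisons share the vehicle libraries. MMP7 had 0, 4.75 and 31.1 normalized counts (log2 fold change -1.28 ± 0.51, adjusted p = 0.438, lower in 5 of 6 batches), and its 0 was batch 6. Without batch 2 it was called (-1.999, adjusted p = 0.0209). ADAMTS14 had 48.0, 134 and 210.2, with -0.76 ± 0.28 (0.372, lower in 6 of 6). MMP9 had -0.70 ± 0.29 (0.463) and MMP25, a GPI-anchored MMP of leukocytes, -0.52 ± 0.23 (0.499), each lower in 5 of 6. At an unadjusted p under 0.05, 3 member genes were higher and 8 lower (all entries: 4.42% higher and 4.68% lower), and the members' median was -0.153 beside -0.00768 over all entries. Without batch 1 the counts were 4 and 2, and without vehicle of batches 2 and 4 they were 5 and 8 with a median of 0.027. In the same comparison the summed epithelial markers were below vehicle in 5 of 6 batches (median log2 difference -0.336). Among them CDH1 was called lower (-1.89, adjusted p = 0.00957), while KRT5 had 2.46 (0.458). The sums of smooth muscle (-0.323), mesenchymal (-0.236) and melanocyte markers (-0.226) were also below vehicle in 5 of 6 batches, and that of dividing cells was above it in 5 of 6 (0.939, range -1.34 to 2.91). The part of these cells in the members' values was not tested.

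**Figure D3:**
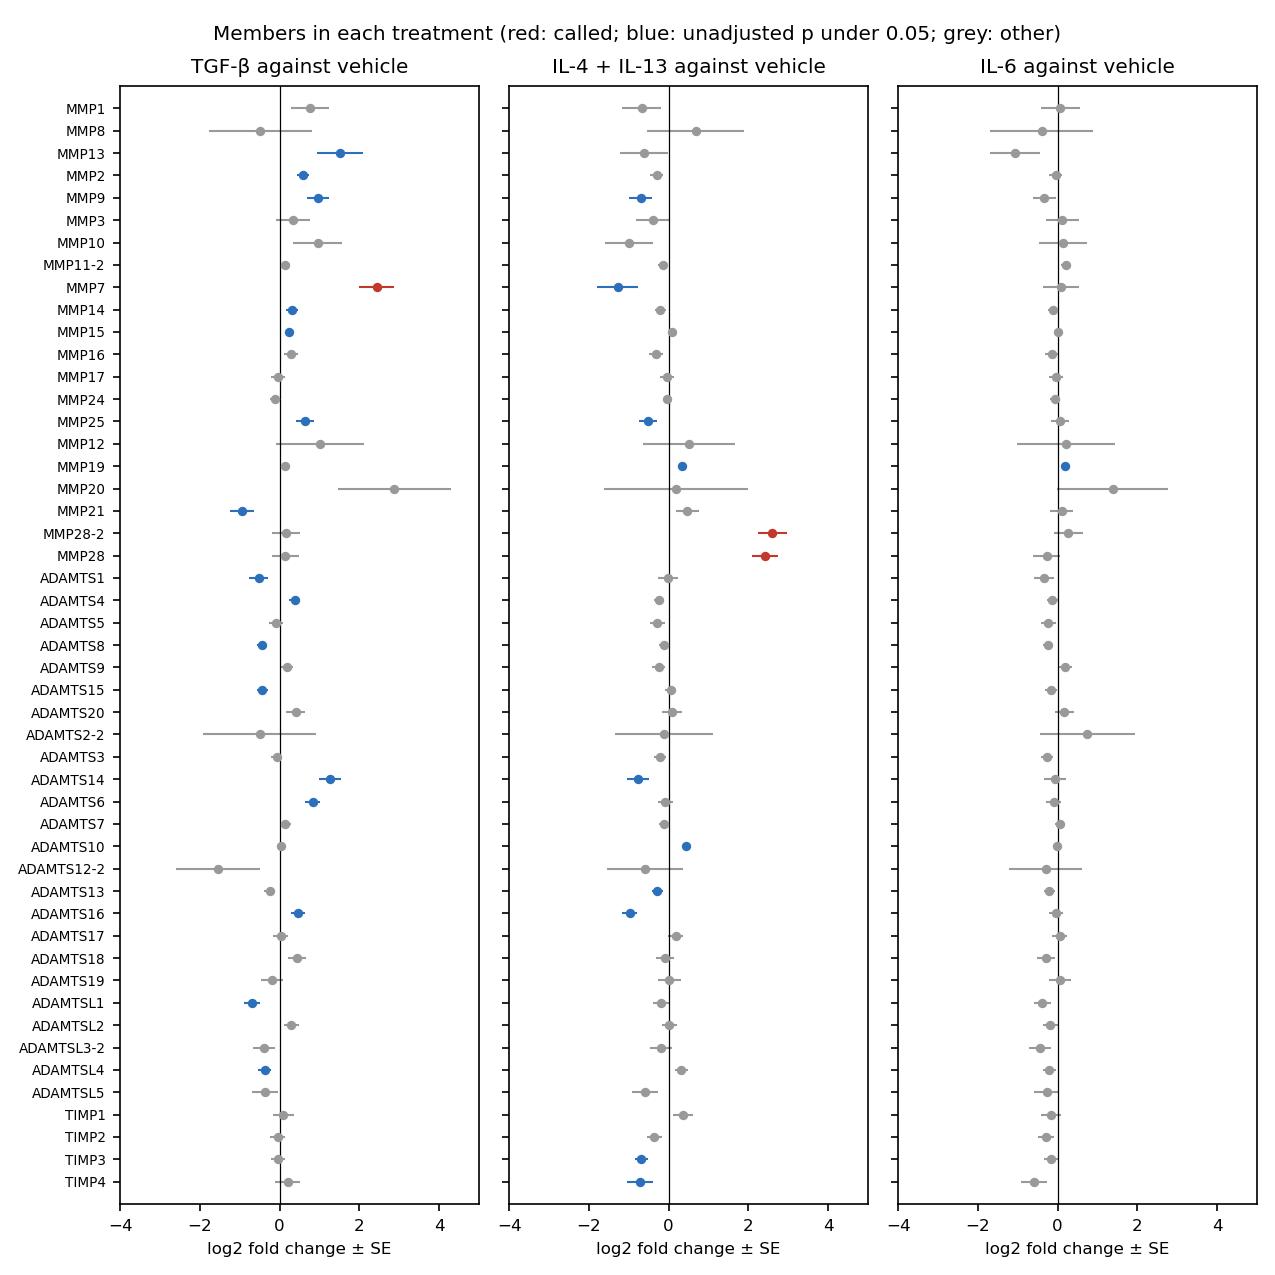
Log2 fold changes of the 49 entries against vehicle (horizontal axes, points with SE bars) in 3 panels (TGF-β, then IL-4 + IL-13, then IL-6), ordered by role. Red marks called entries, blue an unadjusted p under 0.05. MMP7 is the red point of the TGF-β panel and both MMP28 entries are those of the IL-4 + IL-13 panel, while the IL-6 panel has no red point and blue for MMP19 alone.

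IL-6 gave no call. Of the 48 genes edgeR called 0 and DESeq2 0, where edgeR called 0% of all entries (0 of 29377) and DESeq2 0.408%, and 1 member, MMP19, had an unadjusted p under 0.05 beside 4.77% of all entries. MMP19 had 379, 458 and 857 normalized counts under IL-6, a log2 fold change of 0.18 ± 0.08 (adjusted p = 0.850, 5 of 6 higher). For MMP7 the log2 fold change was 0.08 with a 95% interval from -0.80 to 0.96, for ADAMTS14 -0.07 (-0.61 to 0.47), for ADAMTS16 -0.04 (-0.39 to 0.31) and for MMP28 -0.28 (-0.94 to 0.39). MMP28-2 had 0.27 (-0.44 to 0.97). The upper bounds of MMP7 and of both MMP28 entries lay below their log2 fold changes under TGF-β (MMP7) and under IL-4 + IL-13 (MMP28).

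The direct comparison of TGF-β with IL-4 + IL-13 does not use the vehicle libraries as a reference, and it separated the most members. edgeR called 7 genes, 5 higher under TGF-β (MMP7, MMP9, MMP25, ADAMTS14 and ADAMTS16) and 2 lower (MMP21 and MMP28), where 1.18% of all entries were called (0.47% higher and 0.711% lower). DESeq2 called 10, adding MMP1, MMP10 and MMP13 as higher, with 2.13% of entries. At an adjusted p under 0.05 of whatever size, 10 genes were higher and 4 lower, beside 1.08% and 1.9% of all entries. The median log2 difference of the members was 0.254 and that of all entries -0.0048. Without vehicle of batches 2 and 4 edgeR called 8 higher and 2 lower.

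MMP7 differed by 3.71 ± 0.49 on the log2 scale, 13.1-fold (adjusted p = 0.000156, higher in 6 of 6 batches), from a within-batch difference of 0.62 in batch 2 to 5.32 in batch 6. ADAMTS14 differed by 2.04 ± 0.29 (4.10-fold, 0.000285) and ADAMTS16 by 1.44 ± 0.18 (2.71-fold, 0.000105), and for both of these the lowest TGF-β library stood above the highest IL-4 + IL-13 library. Both entries of MMP28 were lower under TGF-β without overlap, by -2.28 ± 0.33 (0.000350) for MMP28 and -2.44 ± 0.35 (0.000387) for MMP28-2. MMP7, MMP28, ADAMTS14 and ADAMTS16 kept the call in each fit that left out 1 batch.

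MMP9 differed by 1.67 ± 0.29 (3.18-fold, adjusted p = 0.00189) and was called in each of those fits. MMP25 had 37.1, 66.5 and 140.4 normalized counts under TGF-β against 11.9, 32.1 and 51.8 under IL-4 + IL-13, a difference of 1.15 ± 0.23 (0.00531) that lost the call without batch 5 (1.11, 0.0510). MMP21 was low in most libraries, with 4.78, 8.80 and 118 against 18.5, 30.7 and 189, the highest of both groups in batch 6. Its difference of -1.41 ± 0.30 (0.00928, lower in 6 of 6) lost the call without batch 3 (-1.34, 0.0723).

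Members below the fold limit and with an adjusted p under 0.05 were MMP2 (0.89 ± 0.16, 0.00296), ADAMTS6 (0.91 ± 0.19, 0.00904), the aggrecanase ADAMTS4 (0.62 ± 0.14, 0.0122), TIMP3 (0.65 ± 0.17, 0.0480) and MMP14 (0.52 ± 0.14, 0.0493), all higher under TGF-β in 6 of 6 batches. ADAMTS10 (-0.41 ± 0.09, 0.00995) and the microfibril protein gene ADAMTSL4 (-0.70 ± 0.17, 0.0261) were lower in 6 of 6. The interstitial collagenase MMP1 differed by 1.45 ± 0.47 (0.132, DESeq2 0.0227), the stromelysin MMP10 by 1.94 ± 0.60 (0.105, DESeq2 0.00623) and MMP13 by 2.14 ± 0.61 (0.0685, DESeq2 0.00935). In this comparison the marker sums of mesenchymal cells (6 of 6 batches, median log2 difference 0.464, range 0.146 to 1.45), of glia (6 of 6, 0.547) and of epithelium (6 of 6, 0.348) were all higher under TGF-β and that of endothelium was lower in 5 of 6 (-0.557), and their part in the members' differences was not tested.

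**Figure D4:**
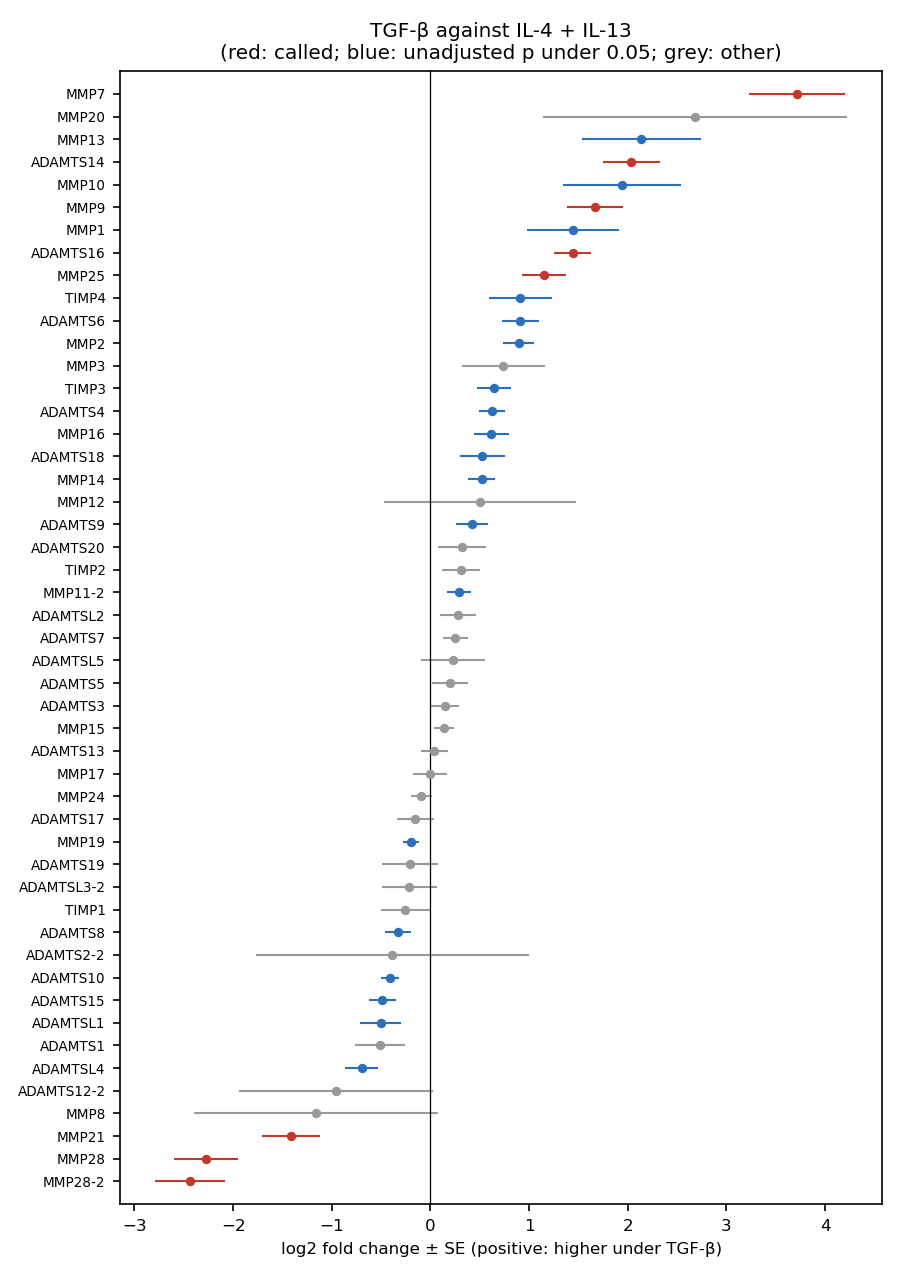
Log2 fold change between TGF-β and IL-4 + IL-13 for the 49 entries (horizontal axis, positive is higher under TGF-β, bars are SE), ordered by size. Red marks the called entries, with MMP7 at 3.71 at one end and the MMP28 entries at -2.28 and -2.44 at the other.

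With IL-6 as the comparator, TGF-β gave 1 called member, MMP7 (2.35 ± 0.43, adjusted p = 0.0433, 6 of 6 higher), where 0.0306% of entries were called, and DESeq2 called 4 (MMP7, MMP9, MMP13 and ADAMTS14) with 0.844% of entries. The edgeR call of MMP7 was lost in the fits without batch 1, 3, 4, 5 or 6 (adjusted p between 0.0807 and 0.337). At an unadjusted p under 0.05, 15 member genes were higher and 1 lower (all entries: 2.99% and 4.51%). IL-4 + IL-13 against IL-6 gave MMP28 in both entries (2.70 ± 0.34 and 2.33 ± 0.35, adjusted p = 0.000201 and 0.00175), where 0.279% of entries were called. ADAMTS16, at -0.94 ± 0.18 (0.0168), and ADAMTS10, which was higher, had an adjusted p under 0.05 without passing the fold limit. MMP28 under IL-4 + IL-13 and MMP7 under TGF-β passed against vehicle, against IL-6 and in the direct comparison.

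The 4 TIMP genes, the inhibitors of the family, gave 0 calls against vehicle with edgeR and with DESeq2. TIMP1 had 2222, 3392 and 5448 normalized counts in vehicle, 2105, 4840 and 8406 under IL-4 + IL-13 (log2 fold change 0.35 ± 0.25) and 1660, 4393 and 5761 under TGF-β (0.10 ± 0.25). TIMP2 had a vehicle median of 24100, with -0.36 ± 0.19 under IL-4 + IL-13 and -0.05 ± 0.19 under TGF-β. For both the groups overlapped widely. TIMP3 had 3768, 8640 and 16900 in vehicle, 4577, 7324 and 13820 under TGF-β, and 2790, 5392 and 8784 with the interleukins, where it was below vehicle in 6 of 6 batches (-0.68 ± 0.17, adjusted p = 0.0917, DESeq2 0.00862). TIMP4, found at 4.96 to 91.8 normalized counts, had -0.71 ± 0.32 under IL-4 + IL-13 (adjusted p = 0.519) and 0.20 ± 0.31 under TGF-β. At an unadjusted p under 0.05, TIMP3 and TIMP4 were the 2 lower TIMP genes under IL-4 + IL-13 and none was so under TGF-β or IL-6.

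By role, the 2 gelatinases and the 3 stromelysin-type members all had positive log2 fold changes under TGF-β (medians 0.78 and 0.339) and negative ones under IL-4 + IL-13 (-0.502 and -0.398). Of the 6 membrane-type MMPs, 4 were positive under TGF-β and 1 under the interleukins, where 47.4% and 48.5% of all entries were positive, with MMP15 at 0.23 ± 0.10 and MMP14 at 0.31 ± 0.14 under TGF-β (adjusted p = 0.636 and 0.629). Of the 7 proteoglycanase ADAMTS, 3 were positive and 4 negative under TGF-β, and 4 of the 5 ADAMTSL were negative. None of these groups held a called member against vehicle, and the role groups were given no test of their own.

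**Figure D5:**
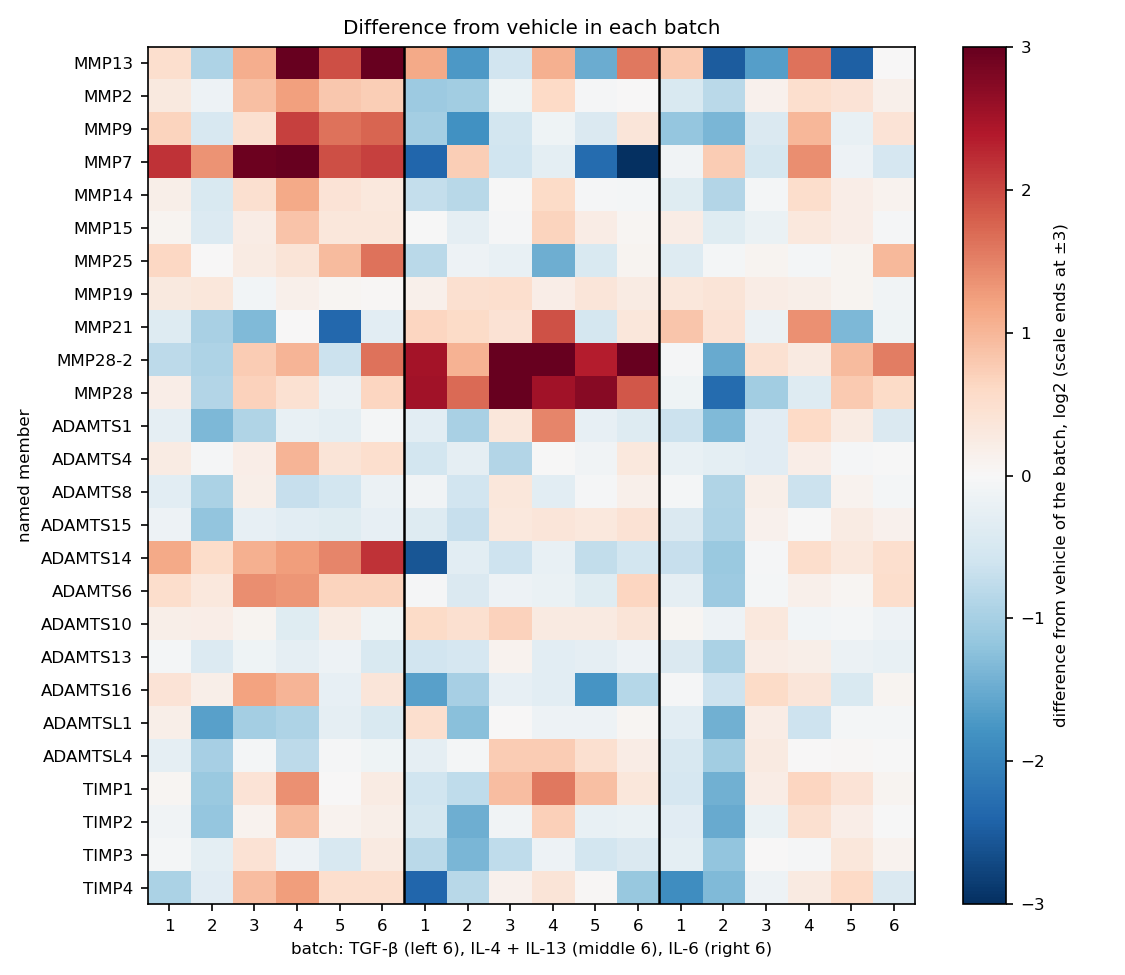
Differences from vehicle within each batch for the 26 entries described in full, as log2 on a colour scale that ends at ±3 (red higher, blue lower), with 6 columns per treatment (TGF-β first, then IL-4 + IL-13, then IL-6). MMP7 and ADAMTS14 are red in all 6 TGF-β columns and both MMP28 entries in all 6 IL-4 + IL-13 columns. In batch 2, where vehicle stood apart, 19 of the 26 are below vehicle under TGF-β, 20 under IL-4 + IL-13 and 23 under IL-6.

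The matrix genes around these enzymes were described by a list of 41 genes (relatives, convertases that activate proenzymes, other inhibitors and substrates), all tested. Against vehicle, TGF-β gave 0 calls with edgeR and with DESeq2 (7 higher and 1 lower at an unadjusted p under 0.05), and IL-6 gave 0 with both tools (0 at an unadjusted p under 0.05). IL-4 + IL-13 against vehicle gave 0 calls higher and 1 lower with each tool, where edgeR called 0.371% of all entries. At an unadjusted p under 0.05 it gave 2 higher and 9 lower (all entries: 4.42% and 4.68%). Under TGF-β the proteoglycan gene VCAN had 0.80 ± 0.14 (adjusted p = 0.0163, 6 of 6 higher) and the collagen gene COL5A1 0.47. In the direct comparison the genes called higher under TGF-β included FN1 (1.49), COL1A1 (1.31), the metalloproteinase ADAM12 (1.18) and VCAN (1.04), and 0 were called lower. COL1A1 also stands in the mesenchymal marker list, and under IL-4 + IL-13 against vehicle it had -0.93 (edgeR, adjusted p = 0.168). Among the substrates, 7 of 15 were higher and 0 lower at an unadjusted p under 0.05, beside 5.04% and 7.2% of all entries. Furin, which activates membrane-type MMPs and ADAMTS, had 0.52 ± 0.18 (adjusted p = 0.152) and PCSK6, a related convertase, -0.62 ± 0.14 (0.0155).

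For some of the doubled symbols the entry outside the rule held most of the reads. ADAMTS2, the main procollagen I N-proteinase, had 23760 reads in entry ADAMTS2 and 117 in the member entry ADAMTS2-2. Entry ADAMTS2 had 574, 821 and 1527 normalized counts in vehicle and 1067, 1231 and 1987 under TGF-β, a log2 fold change of 0.60 ± 0.12 (adjusted p = 0.0290, 6 of 6 higher), and 0.86 ± 0.12 (adjusted p = 0.000230) in the direct comparison. ADAMTS12 had 50584 reads in the entry outside the rule and 448 in the member entry, and there the log2 fold change under TGF-β was 0.15 ± 0.15. Since reads can be split between such copies, the levels of these members are uncertain, and the values of ADAMTS2-2 and ADAMTS12-2 (0 to 34.7 normalized counts) carry little information.

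On the genome, MMP7, MMP20, MMP27, MMP8, MMP10, MMP1, MMP3, MMP12 and MMP13 follow each other between 102520508 and 102955732 of chromosome 11 with no other member between them. Within that run MMP7 alone was called by edgeR over all 6 batches. Without batch 2, MMP1 (1.55, adjusted p = 0.0435), MMP10 (2.13, 0.0218) and MMP13 (2.32, 0.0438) were called as well in the direct comparison. In the direct comparison MMP1, MMP10 and MMP13 were higher by a log2 difference of 1.45 to 2.14, MMP3 was higher without passing an unadjusted p of 0.05, and MMP8, MMP12 and MMP20 had between 27 and 113 reads in all, too few to tell a difference at this depth.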

How the data were processed

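The deposited table holds whole-number read counts per gene, which the authors made from polyA libraries sequenced on an Illumina instrument. Per the labels, reads were trimmed with Trimmomatic 0.30 and aligned to GRCh38.p14. The aligner, the counter and the use of strand are not given in the sources used here, so overlapping and antisense genes cannot be told apart. The study's own model was DESeq2 with batch and treatment.

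Counts of all 24 libraries were fitted together with edgeR 4.0.16 (quasi-likelihood, TMM, robust, limma 3.58.1, R 4.3.3) on entries with a total count of at least 10, with batch and treatment as terms, and p-values were adjusted by Benjamini-Hochberg over 29377 entries. Pairs were called at an adjusted p under 0.05 where the log2 fold change also exceeded 1 in size. Levels are counts divided by the size factors of DESeq2 1.42.0, with a pseudocount of 1 where log2 levels are used. SE is the log2 fold change divided by the root of its F. The labels give each library a batch, which was used as the pairing: libraries of the same batch correlated with a median of 0.564 over 36 pairs, libraries of different batch and group with -0.133 over 180 pairs.

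Members and lists were chosen with earlier results of these data known. Members were given in full by this rule: MMP7, MMP28, MMP19 and ADAMTS14; the 4 TIMP genes; every member called by edgeR in a pair or at an adjusted p under 0.05 for any difference; members with a mean count of at least 10, an unadjusted p under 0.05 against vehicle and 1 direction in at least 5 of 6 batches; and the 5 highest members per kilobase in vehicle. MMP1, MMP10, MMP3, ADAMTS3, the low members of the chromosome 11 cluster and the doubled entries were named after their values were seen. Alternatives were DESeq2, other normalization and filters, no batch term, only the libraries of a comparison, other handling of doubled symbols and leaving out batches or vehicle libraries. The fit was tested on simulated counts. Promoters are from RefSeq, and exon lengths are merged exons of GENCODE. Results of some marker and matrix genes are not reported here.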

Additional observations from a re-analysis of the deposited data

Results flagged for a closer look

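A library was singled out when its gap to the nearest other library of its group exceeded Dixon's limit for the share of the range of 6 libraries, on log2(normalized counts + 1). This held for 7 of 104 combinations of gene entry and group, and chance alone gives about 1 in 20. Batch 1 gave 5 of them. MMP7 was highest in batch 1 under TGF-β (9.54, next library 6.43) and under IL-6 (7.27, next 4.13). MMP28-2 was lowest in batch 1 under TGF-β (3.14, next 5.19). In vehicle, ADAMTS6 (8.49, next 7.54) and ADAMTSL4 (8.94, next 7.87) were highest in batch 1, and ADAMTS13 was highest in batch 5 (8.29, next 7.93). TIMP4 was lowest in batch 6 under IL-4 + IL-13 (2.58, next 4.17).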

How the results depend on the processing

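No result changed direction while called. The log2 fold changes counted here are those of members described in full with an unadjusted p under 0.05 in the main fit. Of these, 1102 values over the alternatives stayed on their side of the call, 31 passed it newly and 29 lost it. Comparisons above that p were not counted, and some changed sign between fits that left out 1 batch (TIMP1, TGF-β against vehicle, -0.11 to 0.39). Without the batch term (no replicate block), the members with any difference numbered 2 in place of 9, the direct comparison of TGF-β with IL-4 + IL-13 gave 1 in place of 7 (ADAMTS16), and TGF-β and IL-4 + IL-13 against vehicle and against IL-6 each gave 0 in place of 1. With DESeq2 the numbers were 16 for any difference, 2 for TGF-β against vehicle and 4 for TGF-β against IL-6. TGF-β against vehicle gave 2 with edgeR's own expression filter, with the first entry of each symbol alone and with the entries of a symbol summed, and 0 with only the 12 libraries of the 2 groups. TGF-β against IL-6 gave 0 with no filter on low counts and 3 with only the 12 libraries.

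Without vehicle of batch 2 the numbers were 16 for any difference, 2 for TGF-β against vehicle and 3 for TGF-β against IL-6. Without vehicle of batches 2 and 4, chosen after seeing the data as was the summing of entries, they were 17, 0 and 4, and 2 for IL-4 + IL-13 against vehicle. Leaving out each batch in turn gave 5 to 14 for any difference, 0 to 3 for TGF-β against vehicle, 1 to 2 for IL-4 + IL-13 against vehicle, 6 to 10 for the direct comparison, 0 to 3 for TGF-β against IL-6 and 1 to 3 for IL-4 + IL-13 against IL-6. IL-6 against vehicle gave 0 under each alternative run. The cause of these shifts was not tested. Members with few reads (MMP8, MMP12, MMP20, ADAMTS2-2) allow no statement at this depth.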
